A study of Camelus bactrianus with 10 samples.

Results

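The miR-23, miR-27 and miR-24 microRNAs (miRNAs) were followed in plasma exosomes of Bactrian camels. The members were all lines of the deposited table named miR-23a, miR-23b, miR-27a, miR-27b or miR-24, for both arms of the hairpin and with any note on altered ends or bases. They numbered 19 of 2581 lines, and they belonged to 11 of 2338 mature names. MiR-24 had 8 lines, miR-27b had 4, miR-23b had 3, and miR-23a and miR-27a had 2 each. Small RNA was sequenced from vesicles pelleted from the plasma of 5 camels labelled thin, of 402.6 to 421.2 kg, and of 5 camels labelled normal, of 452.3 to 492.8 kg. The labels name no treatment, genotype, age or sex for either group, and each library came from 1 camel. The series' title names an effect of such exosomes on hepatocellular carcinoma; the comparison here asked whether these miRNAs, and the balance among them, differed between thin and normal camels.

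In mammals such as human and mouse, these miRNAs are cut from a pair of related transcripts. One cluster holds miR-23a, miR-27a and the second copy of miR-24 (miR-24-2), and the other holds miR-23b, miR-27b and the first copy (miR-24-1). Each hairpin gives a 5p and a 3p arm, and the seed near the 5′ end of the strand that is kept does most of the target recognition. The clusters are well known from blood vessel cells, where they shape angiogenesis. MiR-27 restrains the maturing of fat cells in mouse and human cultures, miR-23 is known for targeting glutaminase, and miR-24 for targeting regulators of the cell cycle. The genome position of the camel hairpins was not analysed here.

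The sequences that carried nearly all of the signal are the 3p arms, shown as the table gives them, in DNA letters with the seed (bases 2 to 8) in capitals, because they set which members can be told apart.
miR-23a-3p: aTCACATTgccagggatttcca
miR-23b-3p: aTCACATTgccagggattacca
miR-27a-3p: tTCACAGTggctaagttccg
miR-27b-3p: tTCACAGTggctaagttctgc
miR-24-3p, short form: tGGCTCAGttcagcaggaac
miR-24-3p, long form: tGGCTCAGttcagcaggaacagt
MiR-23a-3p and miR-23b-3p shared their seed and differed by T19A alone, counted from 1 at the 5′ end. MiR-27a-3p and miR-27b-3p likewise shared their seed and differed over the 20 bases compared by C19T alone. The miR-23 and miR-27 seeds differed from each other by 1 base, T7G. Reads cut before base 19 cannot be assigned within a family, so the separate values of the a and b members are uncertain to that extent. MiR-24-3p has the same sequence from either cluster, and its level is the sum of both. Only 1 line outside the members carried one of these 3 seeds, a line named miR-11977 that reached at most 1.49 normalized counts in any library.

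Values are the authors' normalized counts, with lines of 1 arm summed, and fold changes are thin over normal. Library sums ran over 532999 to 757352 normalized counts, and the step between their low values put their depth at 505263 to 4474902 reads. Normal 4, normal 5 and thin 4 were the 3 deepest, at 2938273 reads or more, against at most 1600083 in the other 7. A 0 in the table means that fewer than about 5 reads were seen, since 99.964% of the values above 0 were 5 reads or more. Normal 4 and normal 5 stood apart in another way: lines with a G-to-T note at base 9 of the read made up 0.720% and 0.900% of them, and 0.0352% to 0.108% of the other 8. MiR-451a of red blood cells and miR-122-5p of hepatocytes, both usual in mammalian plasma, were found in all 10 libraries.

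Together the members made up 1.88% to 2.39% of the thin libraries and 0.919% to 2.10% of the normal libraries. MiR-27 was the main seed family, at 1.17% to 1.27% of thin libraries and 0.511% to 1.17% of normal libraries. The miR-23 seed followed with 0.492% to 0.832% of thin and 0.275% to 0.645% of normal libraries. The miR-24 seed held 0.177% to 0.331% of thin and 0.113% to 0.279% of normal libraries. The order of the arms was stable at its lower end: miR-24-3p was above miR-23b-3p, and below each of the other 3 arms, in 10 of 10 libraries. At the upper end the arms traded places, since miR-27b-3p was above miR-27a-3p in 1 of 5 thin and 4 of 5 normal libraries and above miR-23a-3p in 2 of 5 thin and 4 of 5 normal libraries. Reads of these lengths are counted once each, but ligation favours some ends over others, so an order of levels is not an order of molecules.

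**Figure D1:**
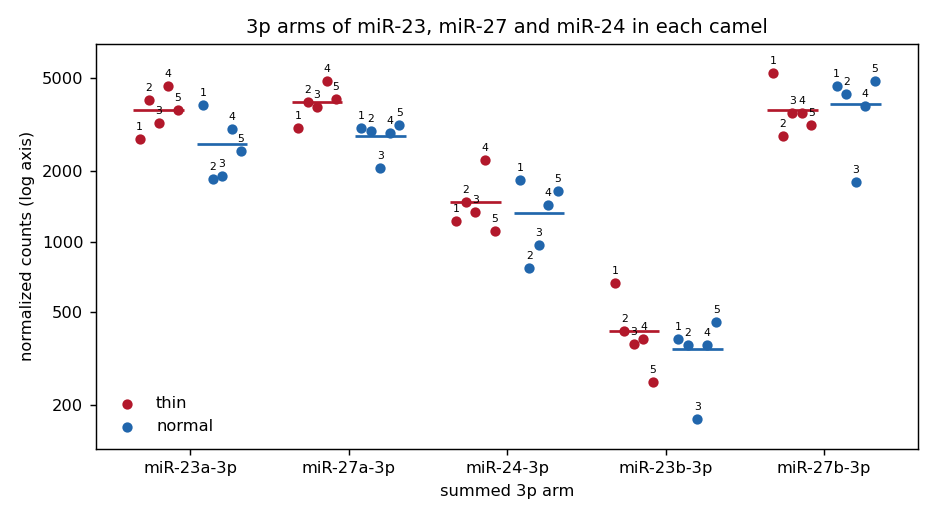
Normalized counts (log axis) of the 5 abundant 3p arms, with 1 point per camel numbered by replicate, thin camels in red on the left of each pair and normal camels in blue, and a line at each group mean. MiR-27a-3p was above all normal camels in 4 of 5 thin camels, and normal 3 was the lowest library for miR-27a-3p, miR-23b-3p and miR-27b-3p.

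None of the members passed the test. Of the 11 arms 8 reached 10 normalized counts in at least 5 libraries and were tested, and 0 were called at an adjusted p of 0.05, where 1.64% of all 428 tested arms were called (limma). Of the 8, 7 had positive log2 fold changes and 1 negative, against 49.1% positive among all tested arms, and the median was 0.41 against -0.02. The arms share clusters and libraries, so their signs are not 8 separate events, and this count was given no test. At an unadjusted p under 0.05 there was 1 of 8, or 12.5%, near the 12.1% of all tested arms. No member arm had groups that did not overlap, where 3.97% of all tested arms did. Counted line by line, 9 of the 19 lines were tested and 0 were called, where 1.92% of 468 lines were called.

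MiR-27a-3p, the miR-27 arm of the first cluster, came nearest. It had 3054, 3967, 3760.2, 4863 and 4084 normalized counts in thin 1 to 5, against 3061, 2970.0, 2069.8, 2926 and 3143 in normal 1 to 5. All thin camels but thin 1 were above every normal camel, and 3 normal camels were below every thin one. The means were 3946 ± 650.1 in thin and 2834 ± 435 in normal camels (SD, n = 5 each). On the log2 scale the fold change was 0.48 ± 0.20 (SE), or 1.39-fold with a 95% interval of 1.03 to 1.87 (limma, unadjusted p = 0.0317, adjusted p = 0.333). Outside the 3 deepest libraries it was 0.47, and over the 20 alternatives it stayed between 0.37 and 0.66 with adjusted p from 0.162 to 0.719. The 0.66 came with library totals made equal, a scaling that moved the median of all tested lines from -0.01 to 0.17.

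MiR-23a-3p, which lies beside miR-27a in the cluster, had 2744, 4021, 3209, 4631 and 3666 normalized counts in thin 1 to 5, against 3847, 1853, 1907, 3038 and 2432 in normal 1 to 5. Thin 2 and thin 4 were above every normal camel and 3 normal camels were below every thin one, while normal 1 lay among the highest thin camels. The log2 fold change was 0.52 ± 0.25 (SE), 1.43-fold with a 95% interval of 0.988 to 2.07 (limma adjusted p = 0.446). Its mean was 3654 ± 727 in thin and 2615 ± 838 in normal camels (SD, n = 5 each). Outside the 3 deepest libraries the value was 0.50, and the 20 alternatives gave 0.41 to 0.70 with adjusted p from 0.219 to 0.738. The 0.70 likewise came with library totals made equal.

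The members of the second cluster had smaller log2 fold changes. MiR-27b-3p, with the same seed as miR-27a-3p, had 5235, 2816, 3536, 3554 and 3138 normalized counts in thin 1 to 5, against 4619.6, 4283, 1799, 3792 and 4871 in normal 1 to 5. The highest library was a thin one and the lowest a normal one, and the other 4 thin camels were below the other 4 normal camels. The log2 fold change was -0.04 ± 0.29 (SE), with an interval of 0.634-fold to 1.502-fold (limma adjusted p = 0.976). Its sign was not stable: it was 0.12 outside the 3 deepest libraries, 0.15 with library totals made equal and -0.29 without normal 3, with adjusted p from 0.669 to 0.996 over the 20 alternatives.

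MiR-23b-3p, the least abundant of the 5 arms, had 665, 414, 366, 382 and 251.5 normalized counts in thin 1 to 5, against 385, 361, 175, 361 and 454 in normal 1 to 5. Thin 1 was the highest and normal 3 the lowest, and the other 8 libraries mixed. Its log2 fold change was 0.26 ± 0.34 (SE), with an interval of 0.721-fold to 1.98-fold (limma adjusted p = 0.818). It was 0.03 without normal 3 and 0.07 without thin 1, and 0.46 outside the 3 deepest libraries (adjusted p from 0.645 to 0.973 over the 20 alternatives).

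MiR-24-3p, which both clusters can supply, had 1225, 1483, 1333, 2240.3 and 1108 normalized counts in thin 1 to 5, against 1826, 769.8, 971, 1439 and 1644 in normal 1 to 5. Thin 4 was the highest, normal 2 and normal 3 were below every thin camel, and the rest interleaved. The log2 fold change was 0.18 ± 0.29 (SE), with an interval of 0.733-fold to 1.75-fold (limma adjusted p = 0.850). It was 0.00051 without normal 2, 0.02 without thin 4 and 0.37 without normal 4 and normal 5 (adjusted p from 0.670 to 0.999 over the 20 alternatives).

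**Figure D2:**
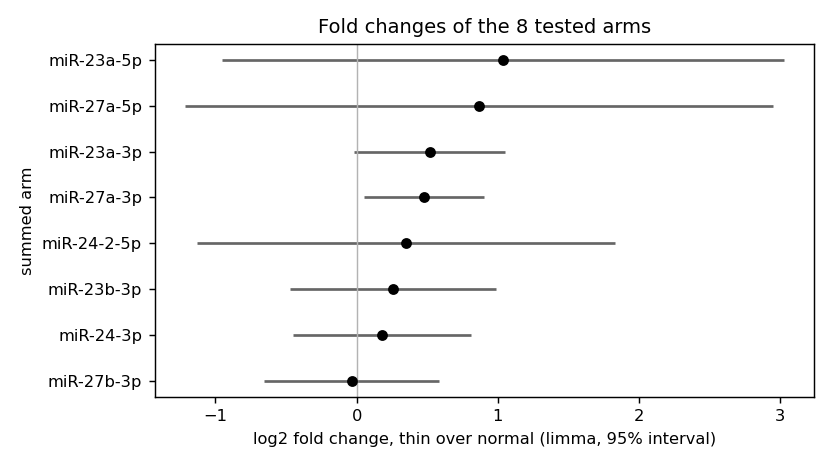
Log2 fold changes of the 8 tested arms, thin over normal, with points at the limma estimate and lines for its 95% interval, each arm on a row. The interval of miR-27a-3p alone lay wholly above 0 before adjustment, and the intervals of the sparse 5p arms were the widest.

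Almost all reads came from the 3p arm. The 5p arm made up 0.314% to 1.11% of miR-23a in thin and 0 to 0.983% in normal libraries, and 0.178% to 0.809% of miR-27a in thin and 0 to 0.899% in normal libraries. The miR-27b 5p arm was seen in 1 thin and 2 normal libraries, and the miR-23b 5p arm in 1 normal library. Both were seen only through lines with a G-to-T change at base 9 of the read, and no unaltered line of either arm was listed. MiR-24 kept the largest share of 5p reads, at 0.846% to 4.64% in thin and 1.57% to 3.97% in normal libraries.

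The 5p arms of miR-24 differ between the clusters and so show which copy they came from, which the 3p arm cannot. The main line of each is shown with the seed in capitals. The miR-24-1-5p line shown begins a base earlier, which shifts its capitals. A shorter miR-24-1-5p line had the same seed as miR-24-2-5p, and the arms differ only towards the 3′ end.
miR-24-1-5p: gGTGCCTActgagctgatatca
miR-24-2-5p: gTGCCTACtgagctgaaacaca
MiR-24-2-5p, of the miR-23a cluster, had 23.03, 12.7, 57.5, 93.3 and 54.0 normalized counts in thin 1 to 5, against 29.1, 12.1, 18.9, 55.5 and 65.7 in normal 1 to 5. It was present in all 10 libraries, and the groups overlapped (log2 fold change 0.35 ± 0.68, SE; limma adjusted p = 0.879). MiR-24-1-5p, of the miR-23b cluster, was at 14.8 in thin 1, 2.30 in thin 4, 10.4 in normal 2, 1.65 in normal 4 and 2.32 in normal 5, and listed at 0 in the other 5 libraries. MiR-24-2-5p was thus above miR-24-1-5p in every library, but in normal 2 only by 12.1 against 10.4. That order rested on few reads, an estimated 14 of miR-24-2-5p against 2 miR-24-1-5p lines of 6 each. Part of the 65.7 of normal 5 was a line named mir-24-2-p5, at 4.64, whose bases lie wholly within the miR-24-1-5p sequence above and in no miR-24-2-5p line, so its name and its bases disagree. With 1 library left out, the log2 fold change of miR-24-2-5p ran from 0.037 without normal 2 to 0.74 without thin 2, and it was 0.69 outside the 3 deepest libraries (adjusted p from 0.665 to 0.996 over the 20 alternatives).

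The other tested 5p arms were sparse. MiR-23a-5p had 23.03, 12.7, 12.04, 18.0 and 41.3 normalized counts in thin 1 to 5, against 12.7, 0, 18.9, 20.8 and 14.9 in normal 1 to 5. Its log2 fold change of 1.04 ± 0.92 (SE) rested on the 0 of normal 2 and was 0.21 without that library (limma adjusted p = 0.704 with all 10 libraries). MiR-27a-5p had 19.7, 31.6, 6.69, 14.3 and 33.3 in thin 1 to 5, against 16.4, 12.1, 0, 19.1 and 28.5 in normal 1 to 5. Its log2 fold change of 0.87 ± 0.96 (SE) was 0.013 without normal 3 (limma adjusted p = 0.762 with all 10 libraries). At this depth neither 0 shows that the arm was absent.

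MiR-24-3p came in 2 abundant forms that share their first 20 bases. The long form ends in a T that the table notes as a changed last base (G23T), and the short form lacks the last 3 bases of the long one. The long form made up 45.9%, 48.9%, 47.2%, 49.1% and 44.2% of both in thin 1 to 5, against 40.7%, 35.7%, 44.1%, 46.9% and 47.0% in normal 1 to 5. Normal 2 was the lowest and thin 4 the highest, and the groups overlapped. The log2 fold change was 0.32 ± 0.34 (SE) for the long form and 0.07 ± 0.28 for the short form (limma adjusted p = 0.757 and 0.952). This split was looked at after the values were seen and was given no test of its own.

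The other 10 lines were below the filter, and none of them exceeded 14.8 normalized counts in a library. Of these, 3 carried a G-to-T change at base 9 of the read, shown with the changed base in capitals.
miR-27b-3p, G9T: ttcacagtTgctaagttctgcg
miR-27b-5p, G9T: agagcttaTctgattggtgaac
miR-23b-5p, G9T: gggttcctTgcatgctgattt
The miR-27b-3p line was at 5.61 in normal 4 and 2.98 in normal 5 and listed at 0 in the other 8 libraries. The miR-27b-5p line was at 2.30 in thin 4, 5.28 in normal 4 and 1.66 in normal 5. The miR-23b-5p line was at 4.64 in normal 5 alone. These are the deep libraries, and normal 4 and normal 5 are also the libraries rich in such lines over the whole table. Against 3792 and 4871 normalized counts of summed miR-27b-3p in normal 4 and normal 5, its G9T line added little. The miR-27b-5p and miR-23b-5p lines were the only lines of their arms and made up all of their summed values.

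Over all 10 libraries, cluster mates kept their ratio more closely than members of 1 seed family from different clusters, but not within the normal group for every pair. The spread of the log2 ratio over the 10 libraries had an SD of 0.267 for miR-23a-3p against miR-27a-3p and 0.276 for miR-23b-3p against miR-27b-3p, the 2 lowest of the 10 pairs of 3p arms. It was 0.50 for miR-27a-3p against miR-27b-3p and 0.590 for miR-23a-3p against miR-23b-3p, although those pairs have nearly the same sequence. The SD over all libraries includes any difference between the groups, such as that of 0.51 for miR-27a-3p over miR-27b-3p. Among thin camels the SD was 0.095 and 0.328 for the cluster pairs, and 0.530 and 0.697 for the miR-27 and miR-23 family pairs. Among normal camels the order did not hold: miR-23a-3p against miR-27a-3p had 0.388, above the 0.343 of miR-27a-3p against miR-27b-3p and the 0.287 of miR-27a-3p against miR-23b-3p, while miR-23b-3p against miR-27b-3p had 0.105 and miR-23a-3p against miR-23b-3p had 0.505. MiR-24-3p kept its ratio more closely to the first cluster than to the second: the SD was 0.305 against miR-23a-3p and 0.395 against miR-27a-3p, and 0.540 against miR-23b-3p and 0.548 against miR-27b-3p. Counting error at the estimated depth gives an SD of at most 0.0898 in any library for any of these pairs. With each library left out in turn, the cluster pairs ranged from 0.198 to 0.293 and the same-family pairs from 0.472 to 0.625. Outside the 3 deepest libraries the SDs were 0.302 and 0.332 within clusters and 0.516 and 0.637 within families, while miR-23a-3p against miR-24-3p had 0.249 and was then the lowest of these 5. These values describe the 10 libraries, which the pairs share, and were given no test.

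**Figure D3:**
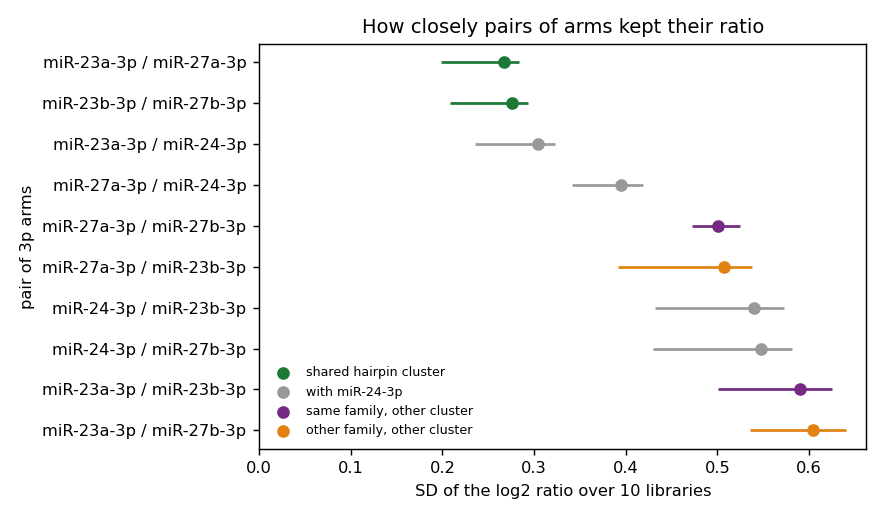
SD of the log2 ratio over 10 libraries for each of the 10 pairs of 3p arms (points), with lines for the range when each library is left out in turn, coloured by whether the pair shares a cluster, includes miR-24-3p, shares a seed family across clusters, or neither. The cluster pairs lie at 0.267 and 0.276, and the same-family pairs at 0.50 and 0.590.

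The same SD ranked all 427 other tested arms by likeness to each member. MiR-27a-3p was the second nearest arm to miR-23a-3p, and miR-23a-3p the second nearest to miR-27a-3p. MiR-27b-3p was the nearest of all to miR-23b-3p, and miR-23b-3p ranked 2 for miR-27b-3p. The same-family partner ranked 56 for miR-23a-3p, 35 for miR-23b-3p, 52 for miR-27a-3p and 24 for miR-27b-3p. Outside the members, the nearest arm was miR-28-5p for both miR-23a-3p (SD 0.212) and miR-27a-3p (0.20), and miR-28-3p for miR-24-3p (0.227). For the second cluster it was miR-126-3p for miR-23b-3p (0.307) and miR-126-5p for miR-27b-3p (0.224), both cut from the hairpin in the endothelial gene EGFL7. The median SD against all other tested arms was between 1.04 and 1.13. Those arms include sparse ones with values of 0, such as miR-23a-5p, and no comparison with arms of like level was made.

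The balance between the clusters was measured by ratios within each library, which do not depend on library scaling. MiR-27a-3p over miR-27b-3p was 0.583, 1.41, 1.06, 1.37 and 1.30 in thin 1 to 5, against 0.663, 0.694, 1.15, 0.772 and 0.645 in normal 1 to 5. MiR-27a-3p was the higher of the pair in all thin camels but thin 1 and in no normal camel but normal 3. The mean log2 ratio was 0.13 ± 0.53 in thin and -0.39 ± 0.34 in normal camels (SD, n = 5 each), a difference of 0.51 ± 0.28 (SE; two-sided exact permutation p = 0.127, adjusted p = 0.296 over 7 ratios). The difference was 0.74 without thin 1 (adjusted p = 0.111) and 0.35 outside the 3 deepest libraries (adjusted p = 0.90). With 5 against 5 the smallest possible exact p is 0.00794, and a single ratio at that value could not pass the adjustment over 7 ratios alone.

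MiR-23a-3p over miR-23b-3p ranged from 4.12 in thin 1 to 14.5 in thin 5 among thin camels, with 9.70, 8.73 and 12.1 in thin 2 to 4. In normal 1 to 5 it was 9.98, 5.13, 10.9, 8.39 and 5.34. The normal camels lay inside the range of the thin ones, and thin 1 was the lowest of all 10 for both this ratio and that of the miR-27 pair. The difference in mean log2 ratio was 0.26 ± 0.38 (SE; exact permutation p = 0.516, adjusted p = 0.722), with 0.54 without thin 1, 0.09 without thin 5 and 0.04 outside the 3 deepest libraries (adjusted p from 0.244 to 0.971 over 15 alternatives).

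Within the first cluster, miR-23a-3p over miR-27a-3p was 0.899, 1.01, 0.853, 0.952 and 0.898 in thin 1 to 5, against 1.26, 0.624, 0.921, 1.04 and 0.774 in normal 1 to 5. The thin camels lay close together and inside the normal range, with an SD of the log2 ratio of 0.095 in thin and 0.388 in normal camels. The means differed by 0.04 ± 0.18 (SE; exact permutation p = 0.841, adjusted p = 0.897).

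Within the second cluster the spread was the other way round. MiR-23b-3p over miR-27b-3p was 0.127, 0.147, 0.104, 0.108 and 0.0804 in thin 1 to 5, against 0.0835, 0.0844, 0.0976, 0.0955 and 0.0935 in normal 1 to 5. All thin camels but thin 5 were above every normal camel, and the SD of the log2 ratio was 0.328 in thin and 0.105 in normal camels. The difference in mean log2 ratio was 0.29 ± 0.15 (SE; exact permutation p = 0.0952, adjusted p = 0.296). It was 0.41 without thin 5 (adjusted p = 0.0556) and 0.19 without thin 2 (adjusted p = 0.463). Without thin 5, every thin camel left was above every normal camel. The adjusted p of 0.0556 was then the smallest that a single ratio alone could reach. Neither difference in spread between the groups was tested.

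Taken by seed, miR-23 over miR-27 had a mean log2 ratio of -0.91 ± 0.26 in thin and -1.18 ± 0.38 in normal camels (SD, n = 5 each), with an exact permutation p of 0.230 and an adjusted p of 0.403. MiR-24-3p over the miR-27 seed had -2.40 ± 0.36 in thin and -2.36 ± 0.50 in normal camels (exact permutation p = 0.897, adjusted p = 0.897). Normal 2 had the lowest miR-24-3p ratio, at -3.23, and the difference of -0.04 was -0.26 without it and 0.05 without normal 3.

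**Figure D4:**
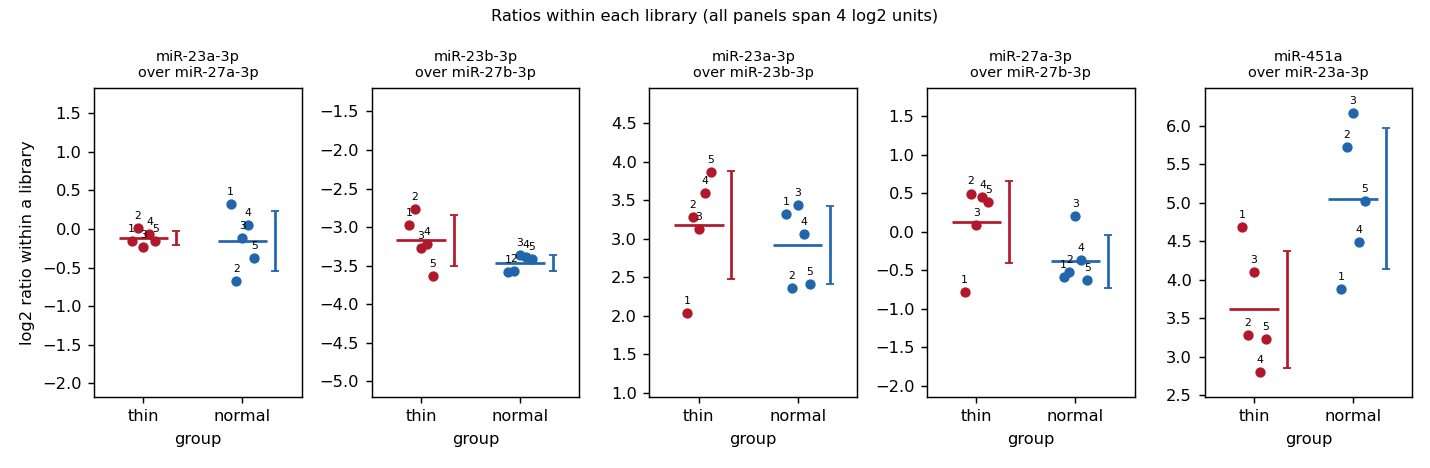
Log2 ratios within each library for 5 pairs of arms, with points numbered by replicate, thin camels in red on the left and normal camels in blue, lines at group means and bars of 1 SD; all panels span 4 log2 units. Among thin camels the pairs within a cluster (first 2 panels) spread less than the same-family pairs, but among normal camels miR-23a-3p over miR-27a-3p, with an SD of 0.388, spread more than miR-27a-3p over miR-27b-3p, with 0.343, and miR-451a over miR-23a-3p was lower on average in thin camels.

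MiR-23a-3p also serves as the stable partner in the usual measure of red blood cell RNA in plasma, its ratio to miR-451a, the main miRNA of red blood cells. MiR-451a over miR-23a-3p was 25.6, 9.72, 17.2, 6.97 and 9.37 in thin 1 to 5, against 14.7, 52.6, 71.7, 22.5 and 32.4 in normal 1 to 5. The highest thin camel, thin 1, was above 2 normal camels, and normal 1 was below 2 thin camels. The mean log2 ratio was 3.62 ± 0.76 in thin and 5.05 ± 0.92 in normal camels (SD, n = 5 each), a difference of -1.43 ± 0.53 (SE; exact permutation p = 0.0397, adjusted p = 0.278). It was -1.43 outside the 3 deepest libraries and -1.63 without normal 4 and normal 5, and adjusted p ran from 0.111 to 0.80 over 15 alternatives. The log2 fold changes of the parts were -0.92 for miR-451a and 0.52 for miR-23a-3p, and neither passed limma's test (adjusted p = 0.147 and 0.446).

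Of the red blood cell markers, miR-451a is itself part of this ratio. All 4 of the list (miR-451a, miR-144-3p, miR-144-5p and miR-486) were tested, and 1 was lower in thin camels (miR-486, log2 fold change -1.41, limma adjusted p = 0.00841), while the other 3 did not pass (adjusted p from 0.0634 to 0.147). Of all tested arms 0.701% were called lower. The call of miR-486 was lost outside the 3 deepest libraries (log2 fold change -1.14, adjusted p = 0.239), without normal 4 and normal 5 (-1.21, adjusted p = 0.124) and without a mean trend (-1.41, adjusted p = 0.104). The list's median was -1.10, and its summed level was 52358 to 103459 normalized counts in thin and 96573 to 215559 in normal libraries. Values of different miRNAs in a library are relative to each other, and the part of the red cell miRNAs in the positive fold changes of the members was not tested. Of the 4 platelet markers, among them miR-126-3p, 0 passed, with summed levels of 36739 to 66141 in thin and 30764 to 52574 in normal libraries. Of the 5 leukocyte markers 0 passed, with 12563 to 37675 in thin and 16384 to 30908 in normal libraries. The median log2 fold change was -0.05 for the platelet list, with 1 of 4 positive, and 0.17 for the leukocyte list, with 4 of 5 positive. The summed levels hide single markers: miR-223-3p of platelets had 0.96 (limma adjusted p = 0.147). MiR-142-3p of leukocytes had 1.11, and its groups did not overlap (limma adjusted p = 0.130). MiR-122-5p, the hepatocyte marker, did not pass either, with 7457 to 47308 in thin and 10443 to 75607 in normal libraries (log2 fold change -0.66, limma adjusted p = 0.704). Fewer vesicles from a cell type and less of a miRNA in each vesicle cannot be told apart here.

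Other miRNAs of the processes the clusters are known for were counted from lists. Of 16 miRNAs of angiogenesis 15 were tested, 0 passed in either direction, and the median log2 fold change was 0.46, against -0.02 for all tested arms. Their 2 most abundant members were miR-92a-3p, which restrains vessel growth (log2 fold change -0.58, limma adjusted p = 0.251), and miR-126-3p, the main endothelial miRNA (-0.01, adjusted p = 0.992). Of 20 miRNAs of fat cell maturing 18 were tested and 1 rose, miR-21-5p, where 0.935% of all tested arms were called higher. MiR-21-5p averaged 83219 ± 17700 normalized counts in thin and 37673 ± 5399 in normal camels (SD, n = 5 each), and its groups did not overlap (log2 fold change 1.13, limma adjusted p = 0.00841). Its call was lost in the same 3 alternatives while its log2 fold change stayed close: 1.003 outside the 3 deepest libraries (adjusted p = 0.242), 1.04 without normal 4 and normal 5 (adjusted p = 0.125) and, as the trend alters only the test, 1.13 without a mean trend (adjusted p = 0.104). None fell, and the list's median was 0.16. MiR-26a-5p was the next most abundant of that list, with -0.12 on the same scale (adjusted p = 0.879). The lists of angiogenesis and fat cell maturing share miR-17-5p, miR-20a-5p, miR-130a-3p and miR-378a-3p.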

How the data were processed

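The deposited table gave 1 column per camel. Per the file headers, its values were normalized counts, a signal of the authors scaled by a factor per library; that factor and the mapping reference are not given in the sources used here. Per the labels' protocols, RNA was taken with a mirVana kit, libraries with a TruSeq small RNA kit were read on an Illumina HiSeq, and ACGT101-miR removed adapter dimers, junk and common RNA families. The protocol speaks of 9 libraries, the table holds 10. A further 2 lines were empty.

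Depth was estimated from the step of low values (99.8% to 99.96% of values up to 200 steps were whole within 0.02), which served for description alone: whole reads were not recovered under the test applied to the table, so no count model was run. Lines were summed by mature name. Log2(value + 1) of rows at 10 or more in at least 5 libraries was fitted in limma 3.58.1 (R 4.3.3) with a mean trend and group as the only term, with Benjamini-Hochberg adjustment over all rows and a threshold of 0.05. Such fold changes of low miRNAs depend on the added value and on single values of 0. That of miR-23a-5p was 1.23 on the log2 scale with 0.5 added and 0.61 with 5 added. The fit was checked on simulated data with changes larger than those of the members and no values of 0. That check does not cover small changes or sparse arms. Ratios were compared by two-sided exact permutation over 252 splits. P-values set the difference between groups against the variation among libraries. Each camel gave a single library, so differences between camels and between libraries are not separated. Other pseudocounts, filters, scalings (equal totals, trimmed mean factors) and left-out libraries were tried. Python 3.11.15 was used. Named arms were every member, its nearest other arm, cell type markers, and the 2 most abundant of each list. The members and lists were chosen with earlier results of these data known.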

Additional observations from a re-analysis of the deposited data

Results flagged for a closer look

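Within each group of 5 the highest and lowest library of 9 member lines and 7 ratios were compared with the rest (32 groups in all), and chance alone flags about 1 in 20 groups. A gap to the nearest library above 0.71 of the group's range was found 6 times, each time for the lowest library of the normal group. Normal 3 was the lowest for miR-27a-3p at 2069.8 normalized counts, for miR-27b-3p at 1799, for miR-23b-3p at 175 and for miR-27a-5p, listed at 0. Normal 2 was the lowest for miR-23a-5p, listed at 0, and for the log2 ratio of miR-24-3p over the miR-27 seed, at -3.23. The arms of a cluster share libraries, so these are not separate events. Normal 3 also had the highest miR-451a, at 136715 normalized counts. Without normal 3 the log2 fold changes were 0.37 for miR-27a-3p, 0.03 for miR-23b-3p and -0.29 for miR-27b-3p. What set normal 3 and normal 2 apart was not tested.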

How the results depend on the processing

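No member passed in any of the 20 alternatives of either fit, although the sparse 5p arms of miR-23a and miR-27a gave no value when every library had to hold at least 10. MiR-27b-3p turned to 0.15 with equal library totals (line and arm; this scaling moved the median of all tested lines from -0.01 to 0.17), and to 0.12 without normal 4 and normal 5 and without the 3 deepest libraries. It ranged from -0.29 to 0.067 with 1 library left out. The short form of miR-24-3p turned to -0.0064 after trimmed mean rescaling and ranged from -0.073 to 0.22 with 1 library left out. Over all small RNAs, 9 were called, with 15 under no filter, 4 in limma without trend, 3 without normal 4 and normal 5, 5 without the 3 deepest libraries and 6 to 14 with 1 library left out (14 without thin 1). Over summed arms, 7 were called, with 12 under no filter, 11 when every library had to hold at least 10, 2 without trend, 1 without normal 4 and normal 5, 3 without the 3 deepest and 4 to 9 with 1 library left out (4 without thin 2, thin 4, normal 3 or normal 5). With 1 library left out, the difference in log2 ratio was -0.092 to 0.16 for miR-23a-3p over miR-27a-3p and -0.26 to 0.051 for miR-24-3p over the miR-27 seed, which was 0.030 without normal 4 and normal 5. The causes were not tested.

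The replicate numbers gave no clear sign of pairing, as same-numbered libraries had correlations of deviations from -0.20 to 0.52 and 2 of 5 correlated best with their own number. So few correlations, with no reference distribution, cannot exclude a pairing. With the replicate number as a block, 9 small RNAs, 5 summed arms and 0 members were called, and the miR-27a-3p over miR-27b-3p difference was 0.51, with an adjusted p of 0.583 in a sign-flip test whose smallest p is 0.0625. Leaving out libraries for the spread of ratios was added after the data were seen. Depth limits the 5p arms most, since a value of 0 allows up to about 5 reads.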

Other observations

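Among all lines, 69 carried a note of a G-to-T change, and in 54 of them the changed base was base 9 of the read, whatever the miRNA. Of these 54, 40 were above 0 in normal 4 or normal 5 alone. Normal 4 held 47 of them and normal 5 held 44, against 4 to 10 in the other 8 libraries. The 10 were in thin 4, the third of the deepest libraries with 2938273 estimated reads, at 0.108% of its total. Lines with any other substitution made up 2.04% to 2.36% of thin libraries and 1.93% to 2.31% of normal libraries. All 3 member lines with a G-to-T change inside the read body (miR-27b-3p, miR-27b-5p and miR-23b-5p) were of this kind, while the G23T of the long miR-24-3p form was at the last base and present in all 10 libraries.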
